A study of Mus musculus with 13 samples.

Results

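The Ly49 receptors are a family of lectin-like surface proteins of mouse natural killer (NK) cells, encoded by the Klra genes. The members described here are the 10 genes named Klra1 to Klra10, found in the count tables by the Ensembl identifier that GENCODE M21 pairs with each symbol, and they make up 10 of the 54532 identifiers counted. The study measured RNA in NK cells of 2 kinds, liver-resident (LrNK) and conventional (cNK), sorted from C57BL/6J mice aged 8 to 10 weeks, and by its title it asks about CD8+ T cells, LrNK maturation and the CD70 and CD27 pair. The groups were LrNK labelled CD8KO, LrNK labelled wild type (WT), cNK labelled CD8KO and cNK labelled WT, with 3, 4, 3 and 3 libraries. The labels give liver lymphocytes as the cells for LrNK and splenocytes for cNK, so the organ and the NK cell type cannot be told apart in any comparison of LrNK with cNK. The labels do not state the CD8KO allele, whether mice were pooled or whether libraries came from separate mice, so p-values measure the spread between these samples, which may be technical.

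Most Ly49 proteins are inhibitory receptors that bind class I major histocompatibility complex molecules (H2-K, H2-D) on other cells and recruit phosphatases through an inhibitory motif. A few lack that motif and are activating, and pair with the adaptors encoded by Tyrobp and Hcst. Each NK cell expresses its own subset of the family, so that the RNA of a sorted population is the sum over cells that carry different receptors. In a bulk sample, fewer cells carrying a receptor and less RNA per cell cannot be told apart. Klra4 (Ly49D) and Klra8 (Ly49H) are the activating members in C57BL/6 mice, and Klra8 recognises a protein of mouse cytomegalovirus. Klra1 (Ly49A), Klra3 (Ly49C), Klra6 (Ly49F), Klra7 (Ly49G) and Klra9 (Ly49I) are inhibitory. Klra5 (Ly49E) is an inhibitory member known from fetal NK cells, and Klra2 (Ly49B) is known from myeloid cells. Klra10 encodes Ly49J, a close relative of Ly49C.

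All 10 members lie on the minus strand of chromosome 6 (GRCm38). Klra5, Klra6, Klra4, Klra8, Klra9, Klra7, Klra10, Klra3 and Klra1 follow each other in that order within a cluster that runs, with Klra17 at one end and Klra1 at the other, from 129831154 to 130386874. Klra2 stands apart, at 131219223 to 131247362, 832 kb beyond the cluster. Cd8a, the gene encoding the CD8 alpha chain, is on the same chromosome, 58.5 to 59.0 Mb from the cluster and 59.8 Mb from Klra2. A further 3 loci in the cluster, Klra11-ps, Klra13-ps and Klra14-ps, are annotated as pseudogenes.

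The start-site windows of 8 of the 10 members share a pair of sequence blocks, and these are printed because genes that carry the same pair differed in opposite directions between the cell types. The windows are those of RefSeq (GRCm38.p6), 250 bases before to 50 bases after each gene's start. Each line gives 53 bases on the gene's own strand, 5′ to 3′, with the first block (GCANTTTCCTC) and the second block (AGGAGGNGCNNAA) in capitals.
Klra2 (chr6:131247397-131247449): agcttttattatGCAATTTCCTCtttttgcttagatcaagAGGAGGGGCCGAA
Klra3 (chr6:130337609-130337661): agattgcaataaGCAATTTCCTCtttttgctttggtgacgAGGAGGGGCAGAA
Klra4 (chr6:130067314-130067366): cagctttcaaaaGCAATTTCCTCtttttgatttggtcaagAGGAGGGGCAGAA
Klra5 (chr6:129913278-129913330): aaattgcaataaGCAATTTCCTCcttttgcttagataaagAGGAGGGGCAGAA
Klra6 (chr6:130027037-130027089): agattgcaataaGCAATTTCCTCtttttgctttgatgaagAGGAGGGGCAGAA
Klra7 (chr6:130233375-130233427): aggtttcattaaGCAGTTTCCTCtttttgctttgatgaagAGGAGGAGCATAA
Klra8 (chr6:130129942-130129994): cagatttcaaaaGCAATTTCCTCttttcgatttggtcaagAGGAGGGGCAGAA
Klra9 (chr6:130193114-130193166): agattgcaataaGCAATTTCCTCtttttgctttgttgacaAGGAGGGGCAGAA

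In all 8 windows the blocks start 28 bases apart. The first block begins 94 bases before the RefSeq start of Klra5, 42 before that of Klra9 and 23 before that of Klra3. Searched on both strands over all 32851 windows of the table, both blocks on the same strand occurred in 11 windows (0.0335%), which belong to these 8 members, Klra17 and the predicted gene Gm52487. The first block alone occurred in 0.134% of windows and the second in 0.25%. The windows of Klra1 and Klra10 hold neither block. The blocks were picked after the sequences had been viewed, so their count among members is a description. The TCF/LEF cores CTTTGA and CTTTGT were found in the windows of Klra6 and Klra7 and of Klra7 and Klra9, and they are present in 16.0% and 18.7% of all windows. The T-box half-site GTGTGA and the RUNX core TGTGGT were found among members only in the window of Klra1, and in 14.5% and 16.8% of all windows. These core motifs were searched on both strands. CTTTGA and CTTTGT share their first bases, and GTGTGA and TGTGGT share the run TGTG.

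The members resemble each other to differing degrees, which bears on how reads can be assigned to them. Coding sequences shared 96.9% of bases between Klra9 and Klra10, 96.2% between Klra3 and Klra10 and 95.9% between Klra3 and Klra9. The lowest identity was 63.6%, between Klra2 and Klra7. Of all stretches of 100 bases in a gene's transcripts, 14.4% were found letter for letter in another gene for Klra8, mostly in Klra14-ps. This share was 5.25% for Klra10, 4.07% for Klra9, 1.83% for Klra7, 1.78% for Klra3 and 0 for Klra1, Klra2, Klra4, Klra5 and Klra6. Counts of the members with shared or closely similar stretches are uncertain. How the authors' counting treated such reads is not given in the sources used here. These shares count exact matches over 100 bases only, so they set no upper limit on that uncertainty. A share of 0 does not mean that every read of a gene was assigned without doubt.

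The deposited libraries held 30578631 to 72716020 counts. Libraries 2 and 4 of LrNK WT and libraries 2 and 3 of LrNK CD8KO agreed far more closely than any other pair of their group, with chi-square values per degree of freedom of 3.04 and 2.67. Each such pair was summed and counted as 1 sample, which left 2 LrNK CD8KO, 3 LrNK WT, 3 cNK CD8KO and 3 cNK WT samples. The LrNK CD8KO sample 1 and LrNK WT samples 1 and 3 had 13917 to 15797 genes with a count, against 19896 to 22921 in every other library. Markers of both cell types matched their labels: summed CPM (counts scaled to the library total) of 8 liver-resident NK genes were 1328 and 1336 in LrNK CD8KO and 1855 to 2314 in LrNK WT, against 281 to 346 in cNK CD8KO and 250 to 285 in cNK WT. Those of 8 conventional NK genes were 748 and 1115 in LrNK CD8KO and 295 to 729 in LrNK WT, against 4137 to 4313 in cNK CD8KO and 4094 to 4297 in cNK WT. The genotype label was not borne out as a loss of Cd8a RNA. Cd8a stood at 41.6 and 43.7 CPM in LrNK labelled CD8KO against 20.1 to 20.5 CPM in LrNK WT, and at 85.9 to 109 CPM in cNK labelled CD8KO against 0.561 to 0.578 CPM in cNK WT. Every direction given below between CD8KO and WT is therefore between libraries so labelled.

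LrNK and cNK samples differed in their levels of Ly49 RNA. How far other cells in the LrNK samples contributed to Klra2, which is set beside myeloid markers below, was not tested. Klra5 and Klra2 were higher in LrNK WT than in cNK WT, and the other 8 members were lower in LrNK WT, with no overlap between samples for any of the 10. Over all genes tested, 17% had every LrNK WT sample above every cNK WT sample and 31.7% had every LrNK WT sample below. The median log2 change was −3.38 over the members and −0.08 over all genes tested. Klra5, the Ly49E gene, had 125, 147 and 124 CPM in the 3 LrNK WT samples, against 11.2, 11.7 and 11.4 CPM in the cNK WT samples. It was 12.3-fold higher in LrNK WT, a log2 change of 3.62 ± 0.15 (SE; edgeR quasi-likelihood test, adjusted p = 7.76e-05). Each LrNK WT sample was thus far above each cNK WT sample for this gene, and the LrNK WT samples differed little among themselves.

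The activating members and Klra10 had the lowest levels in LrNK WT relative to cNK WT. Klra8, the cytomegalovirus receptor gene, had 7.43, 5.99 and 6.43 CPM in LrNK WT, against 852, 800 and 892 CPM in cNK WT. Its log2 change was −6.92 ± 0.14, which is 121-fold lower in LrNK WT (edgeR adjusted p = 1.6e-05). Klra4, the other activating member, had 0.752, 1.35 and 0 CPM in LrNK WT, against 568, 602 and 589 CPM in cNK WT. Its log2 change was −9.49 ± 0.95 (edgeR adjusted p = 0.00153). The sample with no Klra4 count was LrNK WT sample 3, in which a count of 0 allows up to 0.0768 CPM. Klra10 was also close to 0 in LrNK, with 0.188, 1.33 and 0 CPM in LrNK WT, against 70.4, 63.4 and 93.0 CPM in cNK WT (log2 change −6.92 ± 1.08, edgeR adjusted p = 0.00758).

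The inhibitory members Klra1, Klra3, Klra6, Klra7 and Klra9 were lower in LrNK WT by smaller amounts than Klra4, Klra8 and Klra10. Klra2 and Klra10 were not sorted into either class here, so no split by class is drawn over all 10 members. Klra9 differed least: it had 135, 132 and 129 CPM in LrNK WT, against 429, 450 and 434 CPM in cNK WT. That is 3.14-fold lower in LrNK WT (log2 change −1.65 ± 0.10, edgeR adjusted p = 0.000261). Steeper differences were seen for Klra7, Klra3 and Klra1, at 14.1-fold, 11-fold and 9.92-fold lower in LrNK WT. Klra6 averaged 4.10 ± 2.85 CPM in LrNK WT and 23.3 ± 0.792 CPM in cNK WT (SD, n = 3 each), with a log2 change of −2.42 ± 0.59 (edgeR adjusted p = 0.0323). This is the member whose call was least stable: its adjusted p was 0.0512 without LrNK WT sample 2 and 0.107 to 0.117 when any 1 cNK WT sample was left out. Of all 16456 genes tested in this comparison, 10.9% were called higher and 9.83% lower in LrNK WT, against 2 and 8 of the 10 members. Leaving out 1 sample at a time gave 1021 to 6856 called genes in all and 7 or 8 members called lower, with Klra6 the member lost.

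NK identity genes themselves differed in level between the cell types: the summed CPM of 8 of them (Ncr1, Klrb1c, Klrk1, Klrd1, Nkg7, Prf1, Cd244a, Tbx21) was 3111 and 3466 in LrNK CD8KO and 4336 to 5127 in LrNK WT, against 7734 to 8063 in cNK CD8KO and 7829 to 8052 in cNK WT. Scaled to that sum, a choice made after the values were seen, the same 2 members were called higher and 8 lower in LrNK WT than in cNK WT, with Klra5 at a log2 change of 4.26 and Klra9 at −1.01. This scaling moved the median of all genes by 0.63, and of all called genes 5024 were higher and 695 lower in LrNK WT, against 1797 and 1617 under TMM. Under the CD8KO label it moved the median by 1.14 and gave 9916 higher and 435 lower genes, against 2735 and 2069 under TMM, and of the members Klra6 alone lost its call (edgeR adjusted p = 0.0553).

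**Figure D1:**
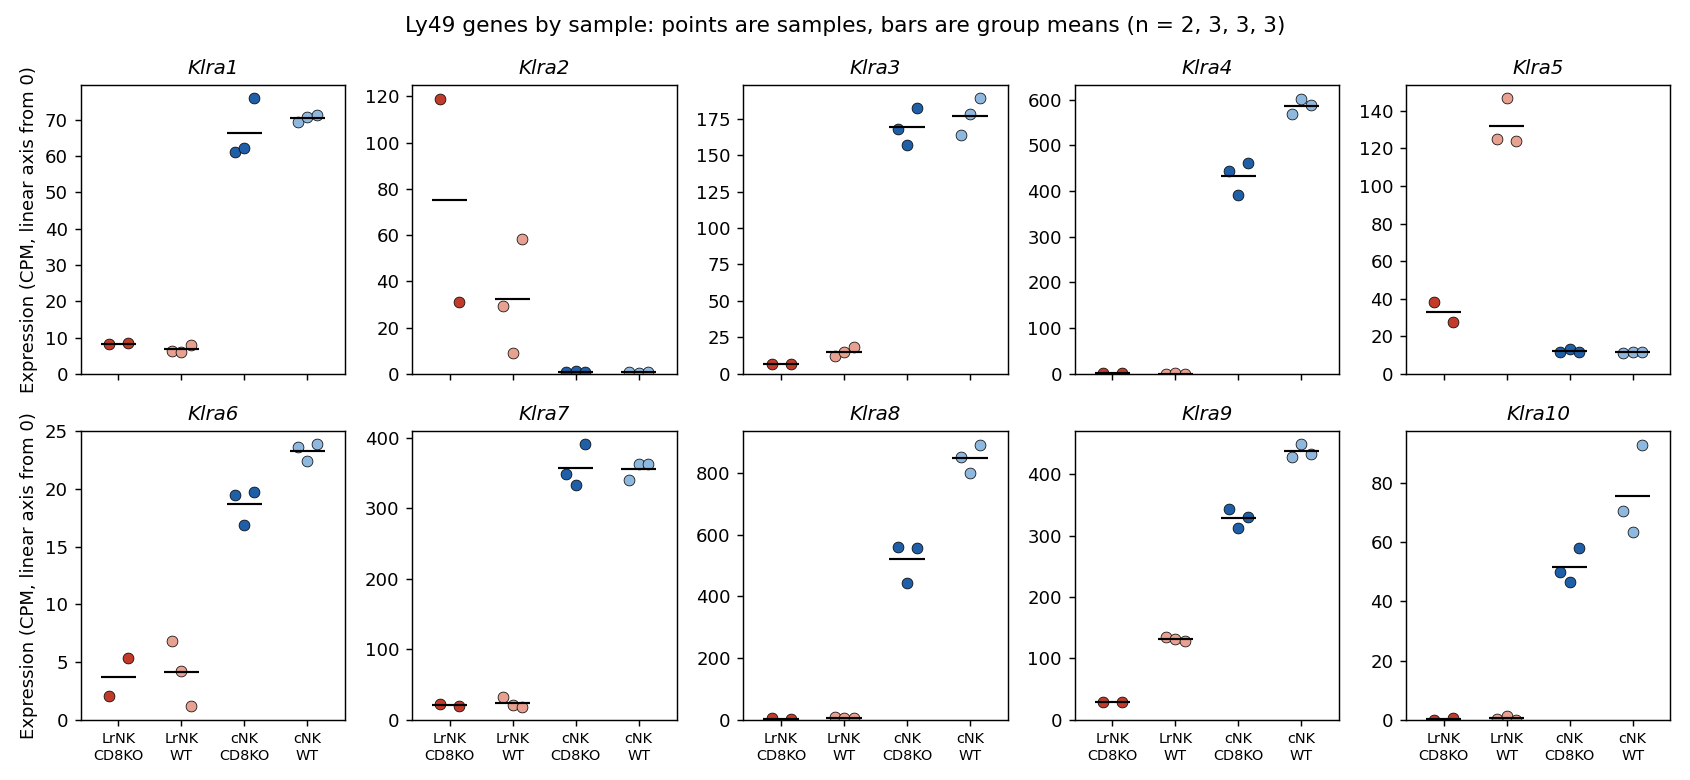
Expression of the 10 members in CPM (vertical axes, linear, each from 0) in each sample of the 4 groups (horizontal axes), with points for samples and bars for group means (n = 2 LrNK CD8KO, 3 LrNK WT, 3 cNK CD8KO and 3 cNK WT). Klra5 and Klra2 are high in LrNK, the other 8 members are high in cNK, and within LrNK the Klra5 and Klra9 points of CD8KO (27.4 to 38.0 and 29.4 to 29.8 CPM) lie below those of WT (124 to 147 and 129 to 135 CPM).

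The same 2 members were higher and the same 8 lower in LrNK CD8KO than in cNK CD8KO, again with no overlap between samples, as was the case for 23.3% of all genes in the higher and 38.4% in the lower direction. These samples are all different from the WT ones. Klra5 had 38.0 and 27.4 CPM in LrNK CD8KO, against 11.7, 13.2 and 11.8 CPM in cNK CD8KO. The gap was 2.90-fold (log2 change 1.54 ± 0.16, edgeR adjusted p = 0.0026), with both LrNK CD8KO samples above all cNK CD8KO samples. Klra9 had 29.8 and 29.4 CPM in LrNK CD8KO, against 343, 313 and 331 CPM in cNK CD8KO, and was 10.2-fold lower (log2 change −3.35 ± 0.11, edgeR adjusted p = 0.000138). Klra8 was 128-fold, Klra4 251-fold, Klra10 118-fold, Klra3 22.1-fold, Klra7 15.7-fold and Klra1 7.29-fold lower in LrNK CD8KO. Klra6 was 4.46-fold lower (edgeR adjusted p = 0.0211), and its adjusted p was 0.0777 to 0.0905 when any 1 cNK CD8KO sample was left out. The median log2 change was −3.66 over the members and −0.05 over all genes. Of 17795 genes tested, 15.4% were called higher and 11.6% lower in LrNK CD8KO. Leaving out 1 sample at a time gave 1688 to 13004 called genes.

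Levels can be compared between members only per length, and here they are CPM per kb of exonic sequence. In LrNK WT the order was Klra9 at 103 ± 2.27 and Klra5 at 94.7 ± 9.24 CPM per kb, whose ranges overlapped, then Klra7 at 18.8 ± 5.68, Klra2 at 17.0 ± 13 and Klra3 at 12.2 ± 2.61 (SD, n = 3). Klra8, Klra1 and Klra6 followed at 5.62, 3.82 and 3.68 CPM per kb, and Klra10 and Klra4 were last at 0.616 and 0.562. In this group the ranges of neighbours overlapped between Klra9 and Klra5, among Klra7, Klra2 and Klra3, and in the step from Klra1 to Klra6 and onward to Klra10 and Klra4. In LrNK CD8KO the order of levels was Klra2 at 39.5, Klra5 at 23.4, Klra9 at 23.1, Klra7 at 16.6 and Klra3 at 5.66 CPM per kb, and the ranges of Klra2 and Klra5 and of Klra5 and Klra9 overlapped. The range of Klra2, 16.5 to 62.5, also took in that of Klra9 and overlapped that of Klra7. In LrNK CD8KO sample 2 Klra2, at 16.5 CPM per kb, lay below Klra9 at 22.9 and Klra5 at 19.6.

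In cNK the order was almost the same under both labels and neighbours were mostly separate. In cNK CD8KO it ran Klra8 at 442, Klra4 at 347, Klra7 at 283, Klra9 at 257, Klra3 at 137, Klra10 at 62.8, Klra1 at 37.7, Klra6 at 16.8, Klra5 at 8.75 and Klra2 at 0.494 CPM per kb. Only Klra7 and Klra9 overlapped there. In cNK WT it ran Klra8 at 720, Klra4 at 471, Klra9 at 342, Klra7 at 281, Klra3 at 143, Klra10 at 91.9, Klra1 at 40.0, Klra6 at 20.9, Klra5 at 8.17 and Klra2 at 0.416 CPM per kb, with no overlap between neighbours. Klra9 and Klra7 stood in opposite order of mean level per length under the 2 labels in cNK.

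**Figure D2:**
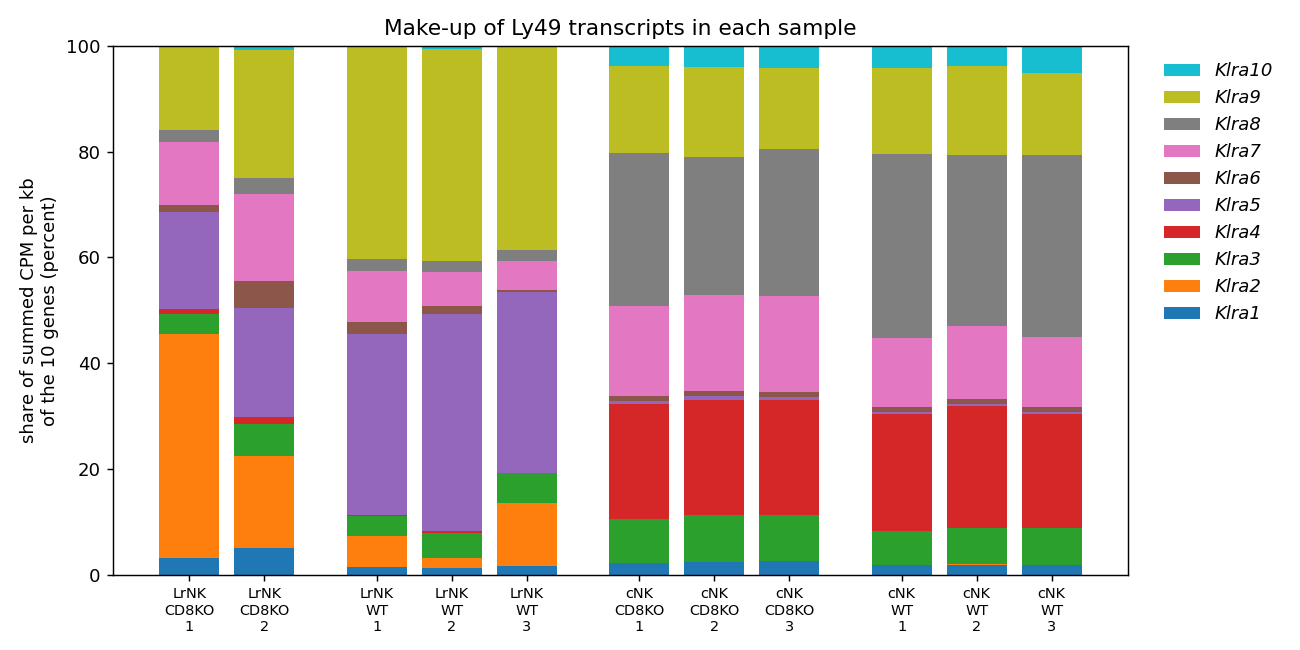
Share of each member in the summed CPM per kb of the 10 genes (vertical axis, percent) in each of the 11 samples (horizontal axis, grouped as LrNK CD8KO, LrNK WT, cNK CD8KO and cNK WT). Klra8 and Klra4 fill most of the bars of cNK together with Klra9 and Klra7, whereas Klra9 and Klra5 fill 38.6 to 40.1% and 34.1 to 41.0% of the LrNK WT bars and Klra2 fills 17.4 to 42.3% of the LrNK CD8KO bars.

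The summed CPM of the 10 members was 232 and 134 in LrNK CD8KO, 343 to 363 in LrNK WT, 1780 to 2089 in cNK CD8KO and 2529 to 2667 in cNK WT. Klra5 and Klra9 together made up 29.2 and 42.4% of that sum in LrNK CD8KO and 69.6 to 81.3% in LrNK WT. Klra2, which moved with a myeloid gene as given below, made up 51.2 and 23.3% of the sum in LrNK CD8KO and 2.64 to 16.0% in LrNK WT. The sums and shares in LrNK therefore also depend on Klra2. In cNK, Klra5 and Klra9 together made up 16.4 to 18.3% under CD8KO and 16.7 to 18.0% under WT. The activating pair Klra4 and Klra8 made up 2.56 and 3.54% in LrNK CD8KO and 1.77 to 2.30% in LrNK WT, against 47.0 to 50% in cNK CD8KO and 54.7 to 56.2% in cNK WT. The 3 pseudogene loci took up 4.53 to 9.34% of the summed CPM of the 14 Klra loci in LrNK samples and 33.1 to 36.9% in cNK samples. Their counts are uncertain for the reason of shared sequence given above.

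Klra2 moved with Lyz2, a lysozyme gene of myeloid cells, across the LrNK samples. It had 119 and 31.2 CPM in LrNK CD8KO and 29.5, 9.05 and 58.2 CPM in LrNK WT, against 0.741, 1.06 and 1.01 CPM in cNK CD8KO and 0.845, 0.536 and 0.990 CPM in cNK WT. It was 84.8-fold higher in LrNK CD8KO than in cNK CD8KO (log2 change 6.41 ± 0.61, edgeR adjusted p = 0.00185) and 42.4-fold higher in LrNK WT than in cNK WT (log2 change 5.41 ± 0.73, edgeR adjusted p = 0.00434). Within LrNK the samples spread widely under both labels and overlapped.

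The summed CPM of 9 neutrophil and monocyte markers (S100a8, S100a9, Lyz2, Csf3r, Cxcr2, Cd14, Ly6g, Retnlg, Mpo) was 7670 and 2142 in LrNK CD8KO, 1907, 555 and 3655 in LrNK WT, 19.7 to 22.9 in cNK CD8KO and 15.1 to 20.4 in cNK WT. Per 100 CPM of that sum, Klra2 had 1.55 and 1.46 CPM in LrNK CD8KO and 1.55, 1.63 and 1.59 CPM in LrNK WT, a nearly constant ratio over samples in which Klra2 itself ranged from 9.05 to 119 CPM. Lyz2 made up 91.6 to 96.7% of that sum in LrNK, so the ratio is in effect one of Klra2 to Lyz2. The other 8 markers summed to 259 and 180 CPM in LrNK CD8KO and 63, 34.8 and 124 CPM in LrNK WT, and per 100 CPM of these Klra2 varied more, at 45.8 and 17.4 CPM in LrNK CD8KO and 46.8, 26 and 47 CPM in LrNK WT. In cNK the ratio was 3.23 to 5.29 under CD8KO and 3.54 to 4.98 under WT, at Klra2 levels near 1 CPM. Ly6g was at 0 in 4 of the 5 LrNK samples, and Retnlg and Mpo were at 0 in the 3 LrNK WT samples. Against 9 macrophage and Kupffer cell markers the ratio of Klra2 varied more, at 7.63 and 4.44 in LrNK CD8KO and 4.20, 4.03 and 7.00 in LrNK WT per 100 CPM. The part of other cells in the Klra2 counts was not tested. The genes most like Klra2 in log2 CPM over the 11 samples were Tifab (Pearson r = 0.998), Spi1 (0.998), which encodes the myeloid transcription factor PU.1, and Cybb (0.997), which encodes a subunit of the phagocyte oxidase.

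**Figure D3:**
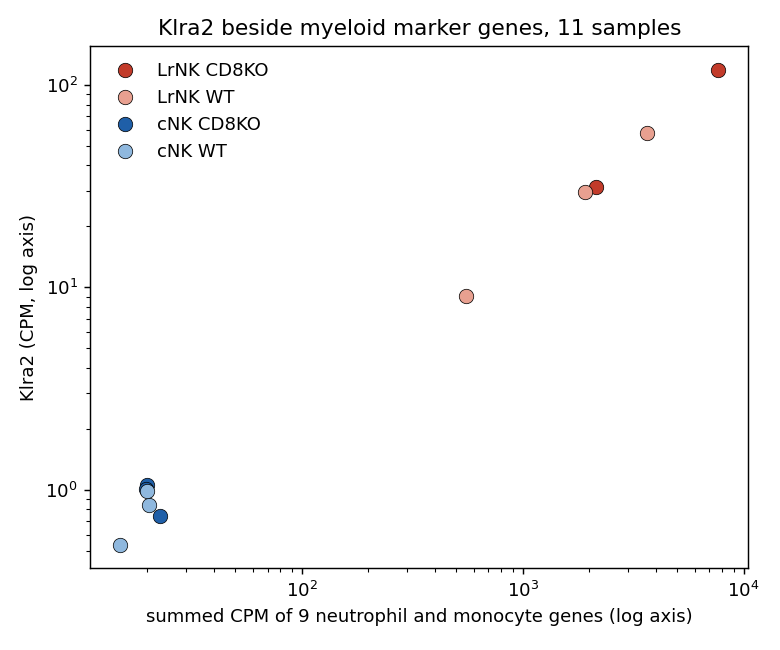
Klra2 (vertical axis, CPM, log scale) against the summed CPM of 9 neutrophil and monocyte marker genes (horizontal axis, log scale), with 1 point for each of the 11 samples. The 5 LrNK points lie on a line between 555 and 7670 CPM of marker sum, with CD8KO sample 1 highest and WT sample 2 lowest, and the 6 cNK points lie together at 15.1 to 22.9 CPM; Lyz2 makes up 91.6 to 96.7% of the sum in LrNK.

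In cNK, 4 members fell under the CD8KO label and none rose. Both activating members were among them. Klra8 had 559, 444 and 557 CPM in cNK CD8KO, against 852, 800 and 892 CPM in cNK WT. It was 1.64-fold lower in cNK CD8KO (log2 change −0.71 ± 0.07, edgeR adjusted p = 7.73e-05). Klra4 had 444, 392 and 462 CPM in cNK CD8KO, against 568, 602 and 589 CPM in cNK WT, a 1.36-fold lower level (log2 change −0.45 ± 0.06, edgeR adjusted p = 0.000785). For both activating genes every cNK CD8KO sample lay below every cNK WT sample, as for 8.35% of all genes tested; 9.68% lay above.

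The inhibitory receptor gene Klra9 had 343, 313 and 331 CPM in cNK CD8KO, against 429, 450 and 434 CPM in cNK WT, again without overlap (log2 change −0.42 ± 0.05, edgeR adjusted p = 0.000413). Klra10 had 50.1, 46.6 and 58.2 CPM in cNK CD8KO, against 70.4, 63.4 and 93.0 CPM in cNK WT (log2 change −0.55 ± 0.11, edgeR adjusted p = 0.0179). The Klra10 call was lost without cNK CD8KO sample 2, at an adjusted p of 0.161, and under DESeq2, at 0.0584. Klra6 had 19.5, 16.9 and 19.7 CPM in cNK CD8KO, against 23.6, 22.4 and 23.9 CPM in cNK WT. Its samples did not overlap but it missed the threshold (log2 change −0.32 ± 0.08, edgeR adjusted p = 0.0653), and DESeq2 called it at 0.00919.

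The other 5 members overlapped between the labels in cNK and had log2 changes of −0.09 ± 0.07 for Klra1, −0.07 ± 0.06 for Klra3, 0.00 ± 0.06 for Klra7, 0.09 ± 0.10 for Klra5 and 0.25 ± 0.32 for Klra2. Klra7, for example, averaged 358 ± 29.6 CPM in cNK CD8KO and 355 ± 13.3 CPM in cNK WT (SD, n = 3 each). The median log2 change was −0.21 over the members and 0 over all genes. Of 16619 genes tested, 0.812% were called lower and 0.499% higher in cNK CD8KO, against 4 and 0 of the 10 members. When all 4 groups were fitted together (0% of genes called lower), which gives cNK the wider spread of LrNK (biological coefficient of variation 63.6% against 9.6% for cNK alone), no member was called in cNK and 1 gene in all was. Without cNK CD8KO sample 2 the number of called genes was 71, and without cNK WT sample 1 it was 90, against 218 with all samples. The sum of 8 NK identity genes was 7734 to 8063 CPM in cNK CD8KO and 7829 to 8052 CPM in cNK WT, and scaling to it left these 4 members called.

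**Figure D4:**
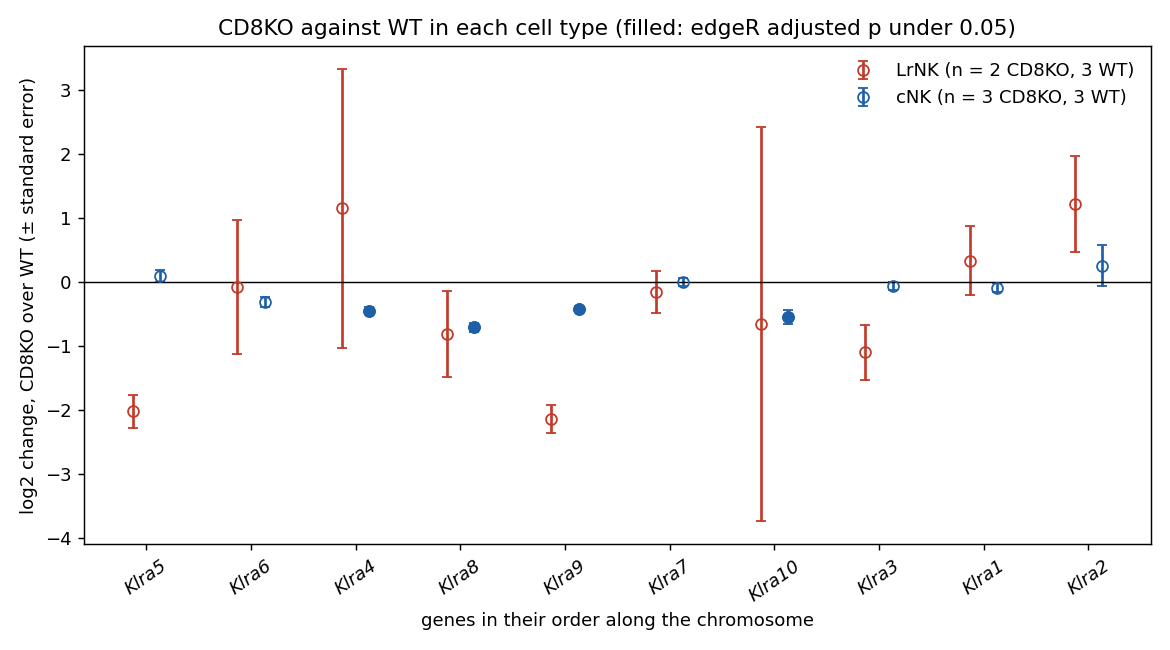
Log2 change of CD8KO over WT (vertical axis, ± standard error) for each member in its order along the chromosome (horizontal axis), in LrNK (red, n = 2 CD8KO and 3 WT) and cNK (blue, n = 3 each); filled points passed an adjusted p of 0.05. The filled points are Klra4, Klra8, Klra9 and Klra10 in cNK, and the lowest values in LrNK are −2.14 for Klra9 and −2.02 for Klra5, with no LrNK point filled.

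In LrNK no member, and no gene of the 16504 tested, was called between the labels by the edgeR fit of the LrNK samples alone (percent called 0), in which the biological coefficient of variation was 98.2%. At an unadjusted p under 0.05 there were 615 genes, and DESeq2 called 59. The median log2 change was −0.41 over the 10 members and 0.02 over all genes tested. Klra9 and Klra5 had the lowest log2 changes of the 10. Klra9 had 29.8 and 29.4 CPM in LrNK CD8KO, against 135, 132 and 129 CPM in LrNK WT. The log2 change was −2.14 ± 0.22, with an unadjusted p of 3.04e-05 and an adjusted p of 0.23 in edgeR. Klra5 had 38.0 and 27.4 CPM in LrNK CD8KO, against 125, 147 and 124 CPM in LrNK WT. The log2 change was −2.02 ± 0.26, with an unadjusted p of 0.000122 and an adjusted p of 0.404 in edgeR. For both genes the LrNK CD8KO samples lay far below the LrNK WT samples and no sample overlapped.

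The values were also taken within samples that had few or many detected genes. Among samples with few detected genes the log2 ratio of CD8KO to WT was −2.14 for Klra9 and −1.72 for Klra5 (1 LrNK CD8KO and 2 LrNK WT samples), and among those with many it was −2.16 and −2.42 (1 sample each). Fitting all 4 groups together called Klra9 (edgeR adjusted p = 4.05e-05), Klra5 (0.00138), Klra3 (0.0307) and Klra8 (0.0439) lower in LrNK CD8KO, where 0.218% of genes were called lower. That fit gives LrNK a narrower spread than its own (biological coefficient of variation 63.6% against 98.2%), so it is too lenient for LrNK. DESeq2 on LrNK alone called Klra9 and Klra5. Scaled to the sum of the 8 NK identity genes, which was lower in both LrNK CD8KO samples than in the LrNK WT samples, the log2 change was −1.61 for Klra9 and −1.45 for Klra5, and neither was called (edgeR adjusted p = 0.309 each); the median of all genes moved by 0.54.

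Markers of NK subsets and of other cells also differed by label in LrNK, none of them called in the fit of the LrNK samples alone. All 8 liver-resident NK markers had negative log2 changes (median −0.54), and 6 of 8 conventional NK markers had positive ones (median 1.56), with both LrNK CD8KO sums above all LrNK WT sums. All 8 neutrophil and monocyte markers tested were positive (median 1.56), and 8 of 9 macrophage and Kupffer cell markers were (median 0.47). All 7 B cell markers were positive (median 3.77). Their summed CPM was 12.8 and 121 in LrNK CD8KO against 10.4 to 16.2 in LrNK WT, so only LrNK CD8KO sample 2 lay above all LrNK WT samples. Of 9 dendritic cell markers 6 were positive and 2 negative (median 0.44). The summed CPM of these dendritic cell markers was however lower, at 894 and 834 in LrNK CD8KO against 1057 to 1282 in LrNK WT. Of 6 hepatocyte markers 2 were positive and 4 negative (median −0.18). Of 9 T cell markers 6 were positive (median 0.34), among them Cd6 at 1.95 ± 0.44 and Cd4 at 0.98 ± 0.58. The summed CPM of the 9 T cell markers was nevertheless lower, at 769 and 935 in LrNK CD8KO against 1336 to 1654 in LrNK WT. Cd3g alone had 179 and 178 CPM in LrNK CD8KO against 538, 542 and 621 CPM in LrNK WT. The other 8 T cell markers also had lower sums, at 590 and 757 CPM in LrNK CD8KO against 798, 1068 and 1033 CPM in LrNK WT. The part of these cells in the values of Klra5 and Klra9 was not tested.

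A further 2 members had LrNK CD8KO samples below all LrNK WT samples, which with Klra5 and Klra9 makes 4 of 10; of all genes tested, 8.47% had no overlap in this direction and 9.84% in the other. Klra3 had 6.99 and 7.02 CPM in LrNK CD8KO, against 12, 15 and 18.5 CPM in LrNK WT (log2 change −1.10 ± 0.43, unadjusted p = 0.0397, edgeR adjusted p = 1). Klra8 had 4.26 and 3.24 CPM in LrNK CD8KO, against 7.43, 5.99 and 6.43 CPM in LrNK WT (log2 change −0.81 ± 0.67, edgeR adjusted p = 1). Klra1 and Klra4 had both LrNK CD8KO samples above all LrNK WT samples, at 8.19 and 8.49 CPM against 5.93 to 7.99 CPM for Klra1, and at 1.67 and 1.5 CPM against 0 to 1.35 CPM for Klra4. Their log2 changes were 0.33 ± 0.54 and 1.15 ± 2.18. Klra6, Klra7, Klra10 and Klra2 overlapped, with log2 changes of −0.08 ± 1.05, −0.16 ± 0.33, −0.66 ± 3.08 and 1.22 ± 0.75. Klra6 had 2.09 and 5.39 CPM in LrNK CD8KO, against 6.86, 4.27 and 1.18 CPM in LrNK WT. Klra10 had 0 and 0.637 CPM in LrNK CD8KO, where the count of 0 allows up to 0.0835 CPM. Klra7 had 22.3 and 19.7 CPM in LrNK CD8KO, against 31.9, 21.3 and 18.2 CPM in LrNK WT.

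In a fit of all 4 groups with 1 shared spread, the effect of the label differed between the cell types for Klra5 and Klra9. For Klra9 the CD8KO effect in LrNK minus that in cNK was −1.72 ± 0.14 on the log2 scale (edgeR adjusted p = 0.00169), with a log2 change of −2.14 in LrNK and −0.42 in cNK. For Klra5 the difference was −2.11 ± 0.22 (edgeR adjusted p = 0.00577), with −2.02 in LrNK and 0.09 in cNK. Both stayed past the threshold in every fit that left out 1 sample and in every alternative, with adjusted p-values of at most 0.0399 for Klra9 and 0.0408 for Klra5; under NK identity scaling the differences were −1.19 and −1.55. Of 19287 genes tested, 7 were called lower (0.0363%) and 1 higher (0.00518%), and 2 of the 7 were these members. This test takes 1 spread for all 4 groups, and the spread of LrNK was wider than that of cNK. The shared biological coefficient of variation was 63.6%, against 98.2% in the fit of the LrNK samples alone. The test is therefore too lenient for LrNK. Neither Klra5 nor Klra9 was called between the labels in the fit of the LrNK samples alone. Klra3 had the next largest negative difference, −1.03 ± 0.24, without passing the threshold (edgeR adjusted p = 0.232), and passed it under DESeq2 (0.0102) and without LrNK WT sample 1 (0.048). Klra8 fell in cNK CD8KO, and its difference between cell types was −0.10 ± 0.19, so its effect was not shown to differ between them. The remaining members had differences of 0.42 ± 0.21 for Klra1, 0.97 ± 0.91 for Klra2, 1.49 ± 0.84 for Klra4, 0.24 ± 0.78 for Klra6, −0.17 ± 0.25 for Klra7 and −0.01 ± 1.12 for Klra10, none of them called. The median difference was −0.06 over the members and 0.04 over all genes.

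Over the 11 samples, the genes outside the family most like Klra5 in log2 CPM were Htra3 (Pearson r = 0.989), which encodes a secreted serine protease, Wbp1 (0.978) and Gzmb (0.974), which encodes granzyme B. Those most like Klra9 were Zc3h14 (0.987), Klrb1a (0.987), a lectin receptor gene of the same complex, and Styk1 (0.986), which encodes a kinase-like membrane protein. Those most like Klra8 were Samd3 (0.996), Tug1 (0.995) and Borcs7 (0.994). The samples form separate groups by cell type, so these values mostly describe which genes share a member's difference between LrNK and cNK.

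Among the other Klra loci, Klra13-ps, a transcribed pseudogene next to Klra10, was lower in cNK CD8KO, with 711, 645 and 843 CPM against 964, 923 and 1161 CPM in cNK WT (log2 change −0.48 ± 0.08, edgeR adjusted p = 0.00924). It was 1 of 4 such loci tested. Klra14-ps had 290, 277 and 348 CPM in cNK CD8KO, against 384, 342 and 393 CPM in cNK WT, and missed the threshold (−0.30 ± 0.07, edgeR adjusted p = 0.0544). Klra13-ps, Klra14-ps and Klra11-ps were lower in LrNK WT than in cNK WT, with log2 changes of −5.72 ± 0.66, −5.58 ± 0.92 and −7.17 ± 1.28. They were also lower in LrNK CD8KO than in cNK CD8KO, where Klra17 was higher (3.16 ± 0.75, edgeR adjusted p = 0.0304). In LrNK WT against cNK WT, Klra17 had a similar log2 change of 3.31 but was not called (edgeR adjusted p = 0.214). Its LrNK WT samples spread widely, at 1.29, 0.0408 and 5.51 CPM, and overlapped those of cNK WT. In LrNK none of 3 such loci tested was called between the labels, with Klra13-ps at −1.11 ± 0.71 and Klra14-ps at −1.55 ± 1.18.

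Of 14 listed genes of NK receptor signalling, which include Tyrobp and Hcst but are not all specific to Ly49 receptors, none was called between the labels when each cell type was fitted alone. In cNK, Lck was at 0.11 ± 0.04 (edgeR adjusted p = 0.266) and Cd247 at 0.13 ± 0.05 (0.293). In LrNK, Syk was at 0.72 ± 0.21 and Cd247 at −0.78 ± 0.27 (adjusted p = 1 for both). With all 4 groups fitted together Syk was called higher in LrNK CD8KO than in LrNK WT (edgeR adjusted p = 0.0202), where 0.55% of all genes were. Between cell types, 3 of 14 were higher and 5 lower in LrNK CD8KO than in cNK CD8KO, with Cd247 at −1.88 ± 0.12, Fyn at −1.59 ± 0.14, Sh2d1b1 at −0.93 ± 0.13 and Lck at −0.77 ± 0.13. Of all genes 15.4% were called higher and 11.6% lower in that comparison, and 10.9% and 9.83% in LrNK WT against cNK WT, which is the background for the counts of this and the next lists. Scaled to the NK identity genes, 3 of the 5 lower genes changed sign: Sh2d1b1 to 0.23, Lck to 0.37 and Tyrobp, at −0.43 under TMM (edgeR adjusted p = 0.0317), to 0.73, where Lck and Tyrobp were called higher (edgeR adjusted p = 0.028 and 0.00526). In LrNK WT 2 were higher and 4 lower than in cNK WT, and these included the kinase genes Zap70 at 0.98 ± 0.11, Syk at −0.92 ± 0.12 and Fyn at −1.50 ± 0.22, and Cd247, the CD3 zeta chain, at −0.98 ± 0.17, of which Syk and Cd247 lost their calls under that scaling (−0.28 and −0.31). Ptpn11, also among the 4 lower genes, changed sign there (0.23). Tyrobp, the adaptor of the activating members, was named outside the rule after its values were seen, and had 690 and 764 CPM in LrNK CD8KO and 915 to 1083 CPM in LrNK WT, against 1012 to 1111 CPM in cNK CD8KO and 953 to 1019 CPM in cNK WT.

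Of 7 genes for class I ligands and their assembly, none was called between the labels in either cell type, with H2-D1 at 0.11 ± 0.04 and Tap1 at 0.09 ± 0.04 in cNK and H2-K1 at −0.26 ± 0.23 and H2-D1 at −0.15 ± 0.23 in LrNK. In LrNK WT against cNK WT 6 were higher and none lower, with B2m at 0.74 ± 0.12, Tap2 at 0.72 ± 0.13, Tapbp at 0.85 ± 0.16 and H2-K1, which encodes a ligand of Ly49C and Ly49I, at 0.55 ± 0.12. In LrNK CD8KO against cNK CD8KO 4 of 7 were higher, namely Tap2 at 0.63 ± 0.09, Tap1 at 0.55 ± 0.09, Tapbp at 0.72 ± 0.12 and B2m at 0.54 ± 0.10. Of 15 transcription factors with a described role in NK development or Ly49 acquisition, none was called between the labels, with Zeb2 at −0.21 ± 0.06 and Zfp683 at 0.59 ± 0.23 in cNK and Zeb2 at 1.37 ± 0.42 and Tcf7 at 0.72 ± 0.27 in LrNK. In LrNK WT 4 were higher and 6 lower than in cNK WT, among them Zfp683 (Hobit), a factor of resident lymphocytes, at 6.82 ± 0.25, Tox at 1.47 ± 0.11, Eomes, a T-box factor of conventional NK cells, at −7.99 ± 0.86, and Tcf7, needed for normal acquisition of Ly49A, at −2.07 ± 0.15. In LrNK CD8KO against cNK CD8KO 3 were higher and 6 lower, with Nfil3 at 1.95 ± 0.10, Zfp683 at 5.80 ± 0.32, Eomes at −6.33 ± 0.30 and Tcf7 at −1.40 ± 0.21. Under NK identity scaling 4 of the 9 called there lost their calls, namely Tcf7 (−0.27), Lef1 (−0.65), Prdm1 (−0.19) and Ikzf3 (−0.05). Id2, at −0.54 under TMM, was then called higher (0.62, edgeR adjusted p = 0.0168). Of the 6 lower factors Eomes alone kept its call. In LrNK WT against cNK WT 2 of the 10 called lost their calls under that scaling, Zeb2 (−1.27) and Ikzf3 (−0.37).

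Of the neighbouring lectin receptor genes of the NK gene complex, none of 15 tested was called between the labels in cNK, and Klrb1a came closest (−0.19 ± 0.05, edgeR adjusted p = 0.097). In LrNK none of 15 was called in the fit of the LrNK samples alone, with Klri2 at −1.23 ± 0.21 (edgeR adjusted p = 0.834) and Klrd1 at −0.95 ± 0.22 (adjusted p = 1). There 14 of the 15 had negative log2 changes, with a median of −0.65. With all 4 groups fitted together, 5 of the 15 were called lower in LrNK CD8KO than in LrNK WT, namely Klri2, Klrd1, Klrc1, Klre1 and Klrb1a (edgeR adjusted p = 0.00155 to 0.0464), beside 4 of the 10 Ly49 members in the same fit. Klri2 was the 1 gene of this list with a called difference between cell types, −1.11 ± 0.14 (edgeR adjusted p = 0.027). It averaged 85.9 ± 3.34 CPM in LrNK CD8KO (SD, n = 2) and 203 ± 15.8 CPM in LrNK WT (SD, n = 3), and 632 ± 38.6 CPM in cNK CD8KO and 684 ± 24.1 CPM in cNK WT (SD, n = 3 each). Between cell types, 3 of 15 were higher and 8 lower in LrNK WT than in cNK WT, with Klrb1b at 1.92 ± 0.11, Klri2 at −1.67 ± 0.10, Klrc3 at −2.56 ± 0.21 and Klrc2 at −1.46 ± 0.13. In LrNK CD8KO against cNK CD8KO 2 were higher and 11 lower, with Klri2 at −2.76 ± 0.11, Klrc2 at −2.02 ± 0.15, Klrc3 at −2.95 ± 0.27 and Klrd1 at −0.96 ± 0.10. The NK identity list holds Klrd1, Klrk1 and Klrb1c of these genes, and scaled to it, 5 of the 13 called genes changed sign under the CD8KO label, Klrd1, Klrk1, Klri1, Klrb1a and Klrb1f, to 0.20, 0.07, 0.20, 0.39 and 0.37, as did 2 of the 11 called under the WT label, Klre1 and Klrb1a, to 0.01 and 0.23. Klrb1a was then called higher under CD8KO (edgeR adjusted p = 0.0336). A further 2 called genes lost their calls with the sign kept under CD8KO, Klre1 (−0.13) and Klrb1c (−0.08). So did 2 under WT, Klrk1 (−0.15) and Klrb1f (−0.02). Of the genes not called under TMM, Klrc1 (0.84) and Clec2d (0.74) changed sign under CD8KO, and Klrd1 (0.55) and Klrb1c (0.15) under WT. Under the same scaling the difference of the label effect of Klri2 between cell types was −0.58 and not called (edgeR adjusted p = 0.0929).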

How the data were processed

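RNA was measured in 13 libraries of sorted mouse NK cells. The authors deposited raw counts per gene, whole numbers that were not normalized, for 54532 Ensembl identifiers. HISAT2 2.1.0 and the GRCm38 build stand in the submitters' processing notes. Which tool counted the reads, on which annotation and strand setting, is not given in the sources used here. Identifiers were matched to GENCODE M21 (54409 matched, 123 not). Even numbers made up 49.5 to 65.2% of counts from 1 to 20.

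Libraries of a group were summed where their chi-square per degree of freedom over genes with at least 12 counts was under 4 and at least 3 times below any other pair of that group. Genes passing filterByExpr (minimum count 10, minimum total 15) were tested with the quasi-likelihood test of edgeR 4.0.16 (R 4.3.3) with TMM scaling and Benjamini-Hochberg adjustment over all genes tested, and called at an adjusted p under 0.05. Each 2-group comparison was fitted on its own groups, because LrNK samples spread far more widely than cNK samples; the difference between cell types used all 4 groups. Alternatives used DESeq2 1.42.0, limma 3.58.1 (voom) and other samples, filters and scalings. The test was tried on simulated data. Fold changes and log2 changes come from this fit, and CPM is the deposited count scaled to its library's total; errors are SE for log2 changes and SD for CPM. All 10 members were named, with up to 4 called genes of each list by smallest p, or the 2 with the smallest p where none was called. Klra18-ps and Klrh1, also listed, were not matched to a tested identifier. The members, lists, tests and comparisons were chosen with earlier results of these data known. Pattern likeness is Pearson's r of log2 CPM (prior count 2) among genes averaging 2 or more log2 CPM.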

Additional observations from a re-analysis of the deposited data

Results flagged for a closer look

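The effect of the CD8KO label differed between LrNK and cNK, by the test of the difference itself, for 2 members of the family and 2 genes named beside them. That test shares 1 spread over all 4 groups, which is too lenient for LrNK, and no gene was called between the labels in LrNK alone. The difference on the log2 scale, CD8KO effect in LrNK minus CD8KO effect in cNK, was −2.11 for Klra5 and −1.72 for Klra9. It was −1.11 for Klri2, a lectin receptor gene of the same complex. For Cd8a, the gene the label names, it was −6.28, with a log2 change of 1.08 ± 0.25 in LrNK, which edgeR did not call (adjusted p = 1), and of 7.35 ± 0.12 in cNK, which it called (adjusted p = 9.43e-15). No group had 4 or more samples after closely agreeing libraries were summed, so single samples were not tested as outliers.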

How the results depend on the processing

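Of 739 values of members under alternatives, 676 kept their direction and their side of the threshold, 25 passed it newly, 15 lost it and 23 changed sign. The sign changes were in uncalled values. In LrNK CD8KO against LrNK WT they were Klra6 at 0.08 (each library its own sample), 0.43 and 0.48 (leaving out a sample) and 0.44 (NK identity scaling, chosen after seeing the data), Klra7 at 0.06 and 0.39, and Klra10 at 0.33; leaving out 1 sample, Klra6 ran from −1.03 to 0.48, Klra7 from −0.33 to 0.06 and Klra10 from −7.68 to 0.33. In the difference between cell types they were Klra10 at 0.01, 0.06, 0.08 and 0.51 (NK identity scaling), Klra7 at 0.38 and Klra8 at 0.44; leaving out 1 sample, Klra10 ran from −7.56 to 2.66, Klra7 from −0.30 to 0.05, Klra6 from −0.69 to 0.80, Klra2 from −0.18 to 1.73 and Klra8 from −0.23 to 0.04. The cause was not tested.

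For LrNK CD8KO against LrNK WT, 148, 59, 259 and 22 genes were called with all 4 groups in 1 fit, DESeq2, no filter and each library its own sample, with 4, 2, 2 and 2 members lower, and 1 higher (Klra2) with no filter; leaving out 1 sample gave 0 to 0. For cNK CD8KO against cNK WT the counts were 1 (all 4 groups, 0 members), 514 (DESeq2), 332 (voom) and 590 (no filter), and 71 to 254 with 3 to 4 members lower without 1 sample. LrNK WT against cNK WT gave 11526 genes without the libraries with few detected genes and 5719 under NK identity scaling, and 1021 to 6856 without 1 sample, with 7 to 8 members lower and 2 to 2 higher. LrNK CD8KO against cNK CD8KO gave 10872, 10351 and 1688 to 13004, with 7 to 8 and 2 to 2. The difference gave 337 (DESeq2), 68 (each library), 2867 with 4 members higher (without libraries with few detected genes), 458 (NK identity scaling) and 5 to 645 without 1 sample, with 2 to 3 members lower. NK identity scaling moved the median of all genes by 0.63 and 1.14 for LrNK against cNK under WT and CD8KO, and made 87.8% and 95.8% of called genes higher, against 52.6% and 56.9% under TMM. It moved the difference's median by 0.53.

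A block for the replicate number gave 180 called genes in LrNK by label (1 member higher, 2 lower), 355 in cNK by label (5 members lower, Klra6 added), 1801 for LrNK WT against cNK WT, 2162 for LrNK CD8KO against cNK CD8KO and 6 for the difference. Deviations of same-numbered samples correlated at 0.30 and 0.49 in LrNK by label, with 2 shared numbers, and at 0.01 to 0.05 in cNK by label. The main fits do not treat the numbers as pairs. In LrNK they thereby leave out a shared deviation: under both labels sample 1 had few detected genes and sample 2 many. Leaving out the libraries with few detected genes leaves 1 LrNK sample under each label, so LrNK by label could not be fitted, and in the other comparisons the lone sample, like the lone LrNK CD8KO sample when the other is left out, is assumed to vary like the other groups.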
